A study of Homo sapiens with 6 samples.

Results

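Genes that mark the switch between an epithelial and a mesenchymal cell state, 8 in all, were followed between HCC827 and HCC827_Er. They were chosen by name, with earlier results of these data known. They are CDH1 and CDH2, which encode E- and N-cadherin, the intermediate filament gene VIM, the repressor gene ZEB1, and the epithelial genes ESRP1, GRHL2, EPCAM and RAB25. All 8 were among the 6641 genes of the deposited table. Total RNA of 6 libraries had been sequenced, 3 of each line. Libraries were assigned to the lines by their sample titles, and the identity of the lines was not tested. HCC827 is an established human lung adenocarcinoma line with an activating mutation of the receptor gene EGFR, and stands for the parental cells of the series title. HCC827_Er stands for the resistant cells, and the design text names histone Kcr (lysine crotonylation) and resistance to EGFR tyrosine kinase inhibitors as its subject. The drug, its dose, the time under selection and whether HCC827_Er is a pool or 1 clone were not given in the sources used here. Both are cell lines grown without a host, although the extraction protocol speaks of tissue.

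Epithelial cells hold to their neighbours through E-cadherin, whose tail binds the catenins and so the actin cytoskeleton. In an epithelial to mesenchymal transition, repressors such as ZEB1 bind E-boxes in the promoters of CDH1 and other epithelial genes, N-cadherin and vimentin are gained, and the splicing factor ESRP1 and the transcription factor GRHL2 are lost. ZEB1 and the microRNAs of the miR-200 family repress each other, so the 2 states tend to exclude one another, and GRHL2 and ZEB1 oppose each other in a like manner. In lung cancer the mesenchymal state is known for its association with resistance to EGFR inhibitors.

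The values were FPKM, fragments scaled to transcript length and to the size of the library, so levels can be set beside each other between genes, while the depth behind them is unknown. The FPKM of the listed genes summed to between 184633 and 224211 per library. The labels do not say if a line's 3 libraries are separate cultures, and p-values here cover the spread of these libraries alone. A gene was called if its limma adjusted p was under 0.05 and its lines lay 1 or more apart on the log2(FPKM + 1) scale, a 2-fold change. Hardly any gene of the table had equal levels in both lines: of the 5276 genes tested, 98.3% had an adjusted p under 0.05 and 97.1% had no overlap between the lines (96.1% of all genes listed). Calls thus rest on the 2-fold minimum, which 24.7% of the genes tested passed as higher and 19.7% as lower in HCC827_Er. These are shares of the listed genes, not of all human genes. Median-ratio rescaling of the libraries turned these shares to 17% and 31.4% (48.4% in all), and rescaling to a common sum to 34.6% and 15% (49.6% in all). In this bulk RNA, fewer cells of a type and less RNA per cell cannot be told apart.

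All 8 genes differed between the lines without overlap, as did 97.1% of all genes tested. The 5 epithelial genes CDH1, EPCAM, ESRP1, GRHL2 and RAB25 were called higher and the 3 mesenchymal genes CDH2, VIM and ZEB1 were called lower in HCC827_Er. Thus 8 of 8 were called, beside 44.4% of all genes tested. The 8 genes and the gene lists below were chosen with earlier results of these data known. Their counts beside the shares over all genes tested therefore describe them and support nothing. At a 4-fold minimum on the same scale 4 were higher (EPCAM, ESRP1, GRHL2 and RAB25) and 2 lower (CDH2 and VIM), beside 7.18% and 5.46% of all genes tested. GRHL2 and RAB25 passed the minimum of 1 FPKM in 3 libraries only through HCC827_Er and CDH2 only through HCC827, so these 3 had to differ once they were tested and their calls support nothing.

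**Figure D1:**
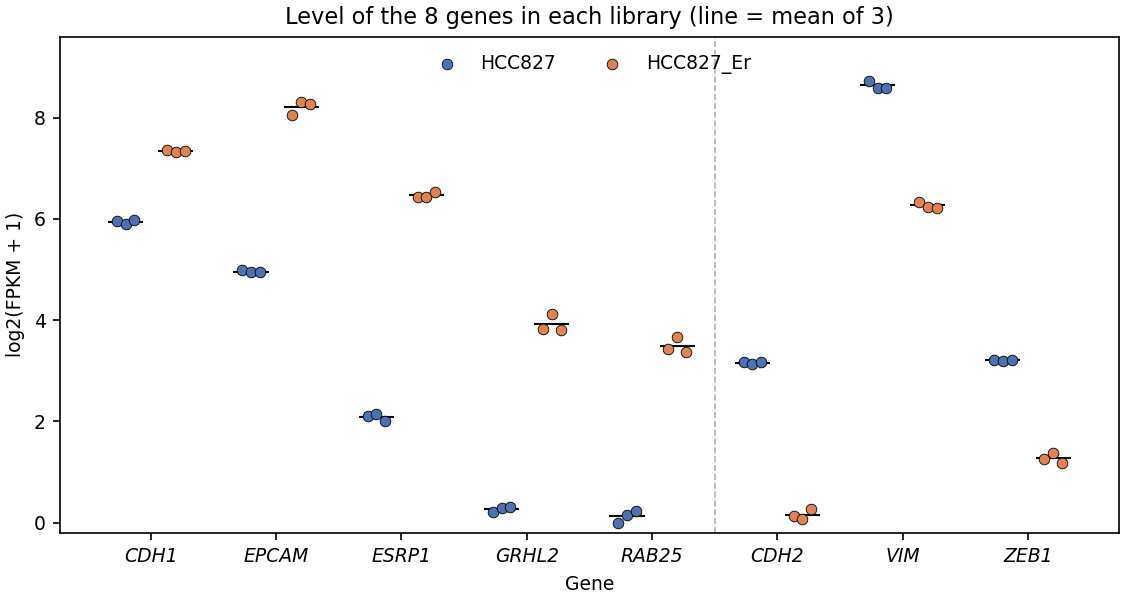
Level of each of the 8 genes on the log2(FPKM + 1) scale (vertical axis) in the 3 HCC827 libraries (blue points) and the 3 HCC827_Er libraries (orange points), with the mean of each line as a bar. The 5 genes left of the dashed line lie higher in HCC827_Er and the 3 to its right lie lower. None of the 8 overlaps between the lines, as held for 97.1% of all genes tested.

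CDH1 and CDH2 are the cadherin genes among the 8. CDH1 (ENSG00000039068, chromosome 16, 68737292 to 68835537 on GRCh38.p14) stood at 61.46, 58.82 and 61.81 FPKM in the HCC827 libraries and at 163.29, 159.19 and 161.67 FPKM in those of HCC827_Er. HCC827 thus had abundant E-cadherin RNA, and HCC827_Er had more, in every library. CDH1 rose by 1.40 on the log2(FPKM + 1) scale (SE 0.0491, 95% interval 1.28 to 1.51, limma adjusted p = 2.39e-08). This was the smallest difference among the 8 genes on this scale (with a pseudocount of 5 it was 1.34, and that of ZEB1 -1.05 was smaller), and it lay at 1.06 with median-ratio rescaling, just past the 2-fold minimum. CDH2 (ENSG00000170558, chromosome 18, 27932879 to 28177130) stood at 8.07, 7.76 and 8.05 FPKM in HCC827 and at 0.09, 0.05 and 0.21 FPKM in HCC827_Er. N-cadherin RNA was moderate in the parental line and close to nothing in the resistant one. CDH2 fell by 3.01 on the log2(FPKM + 1) scale (SE 0.109, 95% interval -3.26 to -2.76, limma adjusted p = 2.78e-08). Its difference depends on the pseudocount, at -5.28 with 0.1 and -1.34 with 5, because the resistant libraries lie near 0.

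The other cadherin genes of the table placed CDH1 and CDH2 in their family. Beside them the table listed 7 more genes named CDH with a number, a set put together after their values were seen. Their FPKM and those of CDH1 and CDH2 summed to 119 ± 3.52 in HCC827 and 359 ± 19.1 in HCC827_Er (SD, n = 3). CDH2 made up 6.71% ± 0.179 of this sum in HCC827 and 0.0329% ± 0.0246 in HCC827_Er (SD, n = 3). CDH6, which encodes K-cadherin, followed CDH2: it stood at 7.22, 8.67 and 8.10 FPKM in HCC827 and at 0.01, 0.00 and 0.00 FPKM in HCC827_Er. CDH3, which encodes P-cadherin of basal epithelia, stood at 40.62, 38.08 and 34.27 FPKM in HCC827 and at 206.43, 181.28 and 175.46 FPKM in HCC827_Er. The share of CDH1 was 51.2% ± 1.66 in HCC827 and 45.0% ± 1.98 in HCC827_Er, and that of CDH3 was 31.7% ± 1.99 and 52.2% ± 1.77 (SD, n = 3). E-cadherin RNA was thus the most abundant of these cadherins in every HCC827 library, and P-cadherin RNA in every HCC827_Er library.

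**Figure D2:**
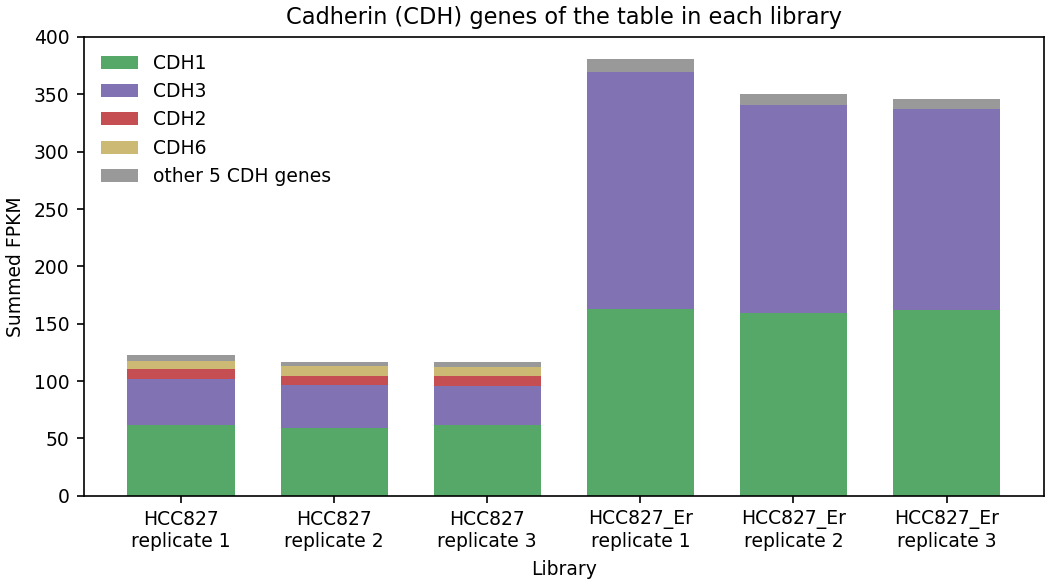
Summed FPKM (vertical axis) of the 9 CDH genes of the table in each of the 6 libraries, stacked by gene, with the other 5 together in grey. CDH1 and CDH3 fill most of every bar, CDH2 and CDH6 are visible in the HCC827 libraries alone, and CDH3 is the larger of the leading genes in HCC827_Er.

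Of the list of other cadherins, catenins and nectins, 9 of 32 names were tested, with 5 called higher and 2 lower (2 and 3 with median-ratio rescaling, 5 and 2 with sum rescaling) and a median difference of 1.09, beside 0.43 over all genes tested. Shares over all genes tested were 24.7% higher and 19.7% lower. NECTIN4 passed the minimum only through HCC827_Er and CDH6 only through HCC827. CTNNB1, which encodes beta-catenin, the partner of the E-cadherin tail, rose from 84.3 ± 2.98 to 202 ± 5.62 FPKM (SD, n = 3; log2 difference 1.25, limma adjusted p = 6.14e-08; 0.91 and not called with median-ratio rescaling). JUP, which encodes gamma-catenin, stood at 86.3 ± 4.46 and 144 ± 12.2 FPKM (SD, n = 3), not called at 0.73 on the log2 scale and called higher with quantile normalization. CTNNB1 and JUP were named after their values were seen. The cell adhesion gene NECTIN4 rose from 0.0467 ± 0.0153 to 6.17 ± 0.258 FPKM, while NECTIN3 fell from 9.67 ± 0.665 to 3.04 ± 0.112 FPKM (SD, n = 3).

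Vimentin was the most abundant of the 8 transcripts in the parental line. VIM (ENSG00000026025, chromosome 10, 17228241 to 17237593) stood at 424.61, 384.02 and 384.92 FPKM in HCC827 and at 80.26, 74.76 and 73.44 FPKM in HCC827_Er. Only 70 of the listed genes had a higher mean in HCC827, and 376 had one in HCC827_Er, so VIM remained abundant where it was lower. VIM fell by 2.37 on the log2(FPKM + 1) scale (SE 0.0599, 95% interval -2.51 to -2.23, limma adjusted p = 4.87e-09). In GENCODE 29, 24.4% of the exonic bases of VIM are shared with genes of the opposite strand, among them VIM-AS1, and without a stated strand setting their reads cannot be told apart. Of the list of intermediate filaments and linkers 7 of 17 names were tested, 4 called higher and none lower (2 lower with median-ratio rescaling), with a median of 1.41. Over all genes tested 24.7% were called higher and 19.7% lower, with a median of 0.43. The keratin gene KRT19, a filament of simple epithelia, rose from 387 ± 14.8 to 1080 ± 23.3 FPKM (SD, n = 3), and the linkers of keratin to desmosomes PPL and EVPL rose from 1.56 ± 0.125 to 10.2 ± 0.427 and from 4.74 ± 0.212 to 20.9 ± 1.83 FPKM (SD, n = 3). The nuclear lamin gene LMNB1 rose as well, from 27.4 ± 1.16 to 74.5 ± 5.37 FPKM (SD, n = 3). The keratin genes KRT8, the most abundant of the list, and KRT80 were lower in HCC827_Er but not called, at 1740 ± 45.9 and 1030 ± 31.7 FPKM and at 111 ± 2.56 and 57.2 ± 1.85 FPKM (SD, n = 3), and were named after their values were seen. The summed level of the list overlapped between the lines, at 2220 to 2310 FPKM in HCC827 and 2210 to 2320 FPKM in HCC827_Er.

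ZEB1 is the repressor among the 8. ZEB1 (ENSG00000148516, chromosome 10, 31318417 to 31529804) stood at 8.29, 8.19 and 8.34 FPKM in HCC827 and at 1.39, 1.61 and 1.26 FPKM in HCC827_Er. The 3 parental libraries were nearly equal and far above the resistant ones, which kept a low level. ZEB1 fell by 1.94 on the log2(FPKM + 1) scale (SE 0.108, 95% interval -2.19 to -1.69, limma adjusted p = 3.76e-07), with -2.47 at a pseudocount of 0.1 and -1.05 at 5. Of the list of EMT transcription factors, 6 of 19 names were tested, 3 called lower and 1 higher (3 and 1 with median-ratio rescaling, 1 and 2 with sum rescaling), with a median of -0.82. Shares over all genes tested were 19.7% lower and 24.7% higher, with a median of 0.43. ZEB2, the close relative of ZEB1, which passed the minimum only through HCC827, fell from 7.85, 7.27 and 8.19 FPKM to 0.67, 0.37 and 0.73 FPKM. SNAI2, which encodes the repressor Slug, fell from 3.32 ± 0.448 to 1.00 ± 0.367 FPKM and the forkhead factor gene FOXC1 from 3.67 ± 0.180 to 1.13 ± 0.0709 FPKM (SD, n = 3), both under the 2-fold minimum with sum rescaling. HMGA2, a chromatin protein that promotes the transition, went the other way and rose from 17.7 ± 1.36 to 49.8 ± 1.11 FPKM (SD, n = 3). TWIST2 stood at 5.20 ± 0.607 and 9.73 ± 0.506 FPKM (SD, n = 3), not called as deposited and called higher with sum rescaling, and was named after its values were seen. SNAI1 was not analysed here.

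The microRNAs that act on ZEB1 are not measured by FPKM of genes, but 2 of 8 listed names of transcripts that carry such microRNAs were in the table. MIR200CHG (chromosome 12, 6963245 to 6964447), the host of miR-200c and miR-141, stood at 4.01, 2.06 and 0.00 FPKM in HCC827 and at 23.98, 13.69 and 19.67 FPKM in HCC827_Er. The libraries of both lines spread widely and did not overlap, as held for 97.1% of all genes tested. MIR200CHG has 350 exonic bases in GENCODE 29, and the number of fragments behind its levels is unknown. MIR200CHG rose by 2.98 on this log scale, with an SE of 0.507 and a limma adjusted p of 0.000413. MIR205HG (chromosome 1, 209428820 to 209432549), the host of miR-205, was listed at 0 in all 3 HCC827 libraries and at 7.26, 8.14 and 8.61 FPKM in those of HCC827_Er. It passed the minimum level only through HCC827_Er, so its direction was fixed once it was tested and its call supports nothing. The mature sequences are shown, 5′ to 3′ and from RefSeq, with the seed of bases 2 to 8 in capitals, because the seed sets which transcripts a microRNA can pair with; the seeds of miR-200c and miR-141 differ at 1 of 7 bases, and that of miR-205 differs from them at 5 and 6.
hsa-miR-200c-3p: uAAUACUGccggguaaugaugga
hsa-miR-141-3p: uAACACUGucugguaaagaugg
hsa-miR-205-5p: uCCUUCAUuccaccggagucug

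ESRP1 and GRHL2, which uphold the epithelial programme, are the regulators among the epithelial members. ESRP1 (ENSG00000104413, chromosome 8, 94641174 to 94707466), which directs epithelial exon choice, stood at 3.34, 3.46 and 3.01 FPKM in HCC827 and at 85.51, 85.20 and 91.99 FPKM in HCC827_Er. Its level was low in each parental library and high in each resistant one, where 95.1% of the listed genes had a lower mean. ESRP1 rose by 4.38 on the log2(FPKM + 1) scale (SE 0.0784, 95% interval 4.20 to 4.55, limma adjusted p = 9.42e-10), the 27th largest rise of the 5276 genes tested. It was the largest difference of the 8 on this scale, whereas with a pseudocount of 0.1 RAB25 (5.86), GRHL2 (5.53) and CDH2 (-5.28) exceeded ESRP1 (4.70). GRHL2 (ENSG00000083307, chromosome 8, 101492439 to 101681200), which binds and activates CDH1 and other epithelial genes, stood at 0.16, 0.23 and 0.24 FPKM in HCC827 and at 13.28, 16.37 and 12.93 FPKM in HCC827_Er. GRHL2 RNA was near 0 in HCC827 and moderate in HCC827_Er. GRHL2 rose by 3.64 on the log2(FPKM + 1) scale (SE 0.124, 95% interval 3.36 to 3.93, limma adjusted p = 2.05e-08), with 5.53 at a pseudocount of 0.1 and 1.88 at 5.

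Of the list of other epithelial transcription and splicing regulators, 11 of 18 names were tested, with 8 called higher and none lower (7 and 1 with median-ratio rescaling, 9 and 0 with sum rescaling) and a median of 2.09. Among all genes tested 24.7% were called higher and 19.7% lower, with a median of 0.43. OVOL1, SPDEF and TP63 are among the 8 called higher and passed the minimum only through HCC827_Er, so they could be called in no other direction. The repressors of mesenchymal genes OVOL1 and OVOL2 rose from 0.0567 ± 0.0666 to 7.39 ± 0.747 and from 0.897 ± 0.306 to 9.66 ± 2.18 FPKM (SD, n = 3). TP63, a regulator of stratified epithelia, rose from 0.170 ± 0.0819 to 5.71 ± 0.746 FPKM (SD, n = 3). The relative of GRHL2 GRHL1 rose from 3.05 ± 0.554 to 16.2 ± 0.231 FPKM, while KLF4 stood lower in HCC827_Er, at 11.5 ± 0.690 against 23.5 ± 0.514 FPKM (SD, n = 3); both were named after their values were seen. KLF4 was not called as deposited (log2 difference -0.97), and was called lower without HCC827_Er replicate 1 (-1.01), with a pseudocount of 0.1 (-1.02), with quantile normalization (-1.03) and with median-ratio rescaling (-1.29).

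Of the genes known for exons that ESRP1 regulates, 7 of 16 were tested, with 3 called lower and 1 higher (6 and 1 with median-ratio rescaling, 1 and 1 with sum rescaling) and a median of -0.92. These are levels of whole genes, and the table holds no exons or isoforms. Among all genes tested 19.7% were called lower and 24.7% higher, with a median of 0.43. TPM1, a tropomyosin gene, fell from 266 ± 7.90 to 51.5 ± 1.06 FPKM (SD, n = 3), and the hyaluronan receptor gene CD44 from 460 ± 5.77 to 201 ± 7.67 FPKM (SD, n = 3; -0.94 and not called with sum rescaling). ARHGEF11 fell from 11.3 ± 1.43 to 4.74 ± 0.203 FPKM (SD, n = 3; -0.88 and not called with sum rescaling, nor called without HCC827 replicate 3). LSP1, called higher and past the minimum only through HCC827_Er, rests on HCC827_Er replicate 1. Its levels in HCC827_Er were 14.47, 1.25 and 1.17 FPKM, and it lost its call without that library (0.96) or without HCC827 replicate 3 (limma adjusted p = 0.0551). FGFR2, whose epithelial exon ESRP1 selects, was listed at 0 in all 3 HCC827 libraries and at no more than 0.36 FPKM in HCC827_Er, too low to be tested. Among splicing regulators of mesenchymal cells and muscle, 4 of 16 names were tested, with 1 called in each direction (2 lower with median-ratio rescaling, or without HCC827_Er replicate 1) and a median of -0.06. RBM24 fell from 11.5 ± 0.696 to 0.683 ± 0.404 FPKM and CELF2, which passed the minimum only through HCC827_Er, rose from 0.0400 ± 0.0265 to 2.28 ± 0.267 FPKM (SD, n = 3).

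EPCAM and RAB25 are the surface and trafficking genes of the set. EPCAM (ENSG00000119888, chromosome 2, 47369311 to 47387020), an adhesion molecule of epithelia, stood at 30.64, 29.94 and 29.86 FPKM in HCC827 and at 266.38, 314.52 and 309.11 FPKM in HCC827_Er. The parental libraries were nearly equal, and each resistant library lay far above them. EPCAM rose by 3.25 on the log2(FPKM + 1) scale (SE 0.0703, 95% interval 3.09 to 3.41, limma adjusted p = 2.26e-09). RAB25 (ENSG00000132698, chromosome 1, 156061160 to 156070504), a GTPase of the RAB11 family that recycles receptors and integrins in epithelial cells, stood at 0.00, 0.11 and 0.17 FPKM in HCC827 and at 9.77, 11.66 and 9.39 FPKM in HCC827_Er. RAB25 RNA was at or near 0 in the parental line. RAB25 rose by 3.36 on the log2(FPKM + 1) scale (SE 0.126, 95% interval 3.08 to 3.65, limma adjusted p = 3.40e-08), with 5.86 at a pseudocount of 0.1 and 1.58 at 5.

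Genes of the epithelial surface and of RAB11 trafficking were examined beside these members. Of 34 epithelial surface and membrane genes 31 were tested, with 22 called higher and 3 lower (20 and 3 with median-ratio rescaling, 24 and 1 with sum rescaling) and a median of 1.94, beside 24.7% higher and 19.7% lower and a median of 0.43 over all genes tested. Of the 22, TMEM125 and FXYD3 passed the minimum only through HCC827_Er. S100A14, TMEM30B and AP1M2, an adaptor subunit of polarized sorting, rose from 1.09 ± 0.183 to 32.1 ± 2.70, from 1.19 ± 0.260 to 28.1 ± 1.36 and from 7.37 ± 0.950 to 93.2 ± 7.87 FPKM (SD, n = 3). TMEM125 rose from 0.357 ± 0.264 to 18.5 ± 13.7 FPKM (SD, n = 3), with HCC827_Er replicate 1 at 34.37 FPKM and the others at 10.68 and 10.45. Against the list, the tight junction gene CLDN1 fell from 85.9 ± 3.33 to 10.6 ± 0.225 FPKM and CD24 from 271 ± 7.29 to 115 ± 5.43 FPKM (SD, n = 3; CD24 -0.98 and not called with sum rescaling), both named after their values were seen. Of the RAB11 family with its effectors and motors, 7 of 18 names were tested, 4 called higher and 1 lower (2 lower with median-ratio rescaling, and 5 higher and 2 lower without HCC827 replicate 3), with a median of 1.45. The motor genes MYO5B and MYO5C, which carry RAB11 vesicles, rose from 1.88 ± 0.160 to 14.7 ± 0.302 and from 3.20 ± 0.186 to 10.5 ± 1.16 FPKM (SD, n = 3). The effector gene RAB11FIP4 rose from 1.75 ± 0.344 to 11.2 ± 1.44 FPKM and the epithelial GTPase gene RAB17 from 2.77 ± 1.11 to 12.3 ± 0.342 FPKM (SD, n = 3).

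**Figure D3:**
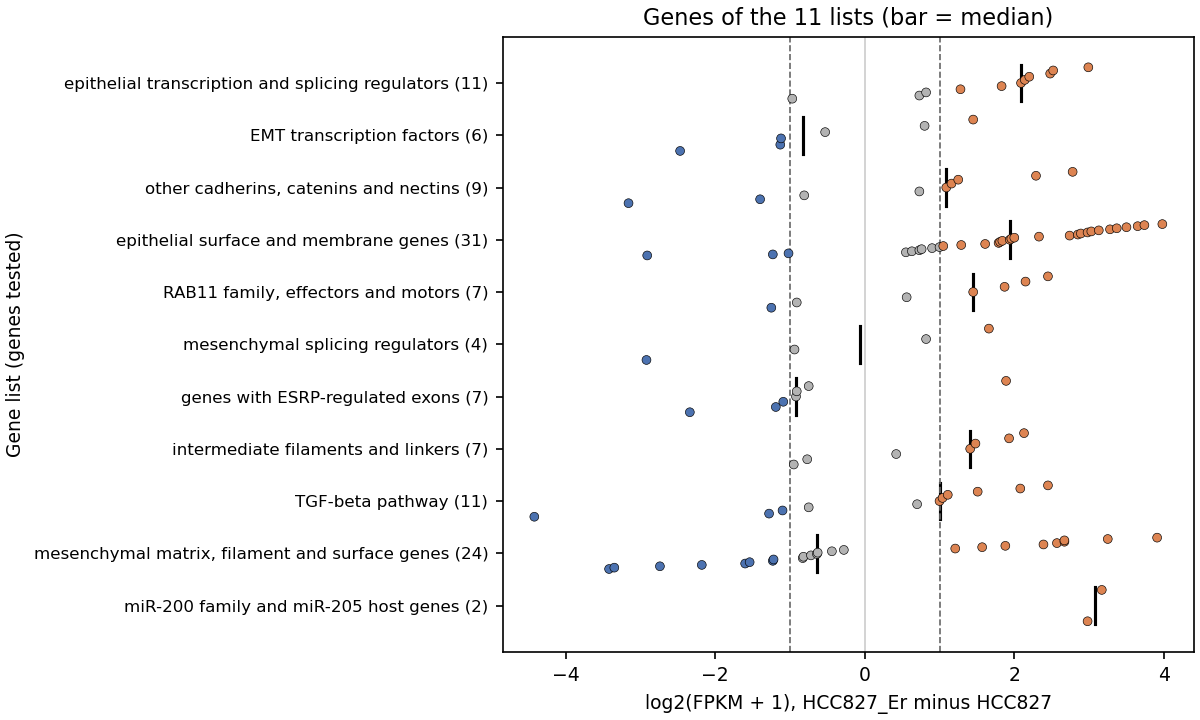
Difference of HCC827_Er from HCC827 on the log2(FPKM + 1) scale (horizontal axis) for every tested gene of 11 gene lists that leave out the 8 members, 1 point per gene and a bar at each median; orange points were called higher, blue lower and grey not called, and dashed lines mark a 2-fold change. The epithelial lists lie mostly to the right, while the mesenchymal matrix genes lie in a left and a right group. Hardly any gene tested had equal levels in both lines, so the gap between these groups is not particular to this list.

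ZEB1 and SNAI2 bind the E-box CACCTG, so promoter windows were searched for it. The windows were those of RAB25, VIM, CDH2, ZEB1 and both microRNA hosts, and CDH1, EPCAM, ESRP1 and GRHL2 were not analysed here. RefSeq windows on GRCh38.p14, 250 bases before to 50 after a start site, were read for CACCTG and, as the same site read on the other strand, CAGGTG. Of 35116 windows 20.6% held at least 1 match. Of the 5688 windows available for the genes tested, which covered 3719 of these genes, 20.8% did. RAB25 held 2 matches, beginning at positions -41 and 38 from the start site, which 3.85% of the windows of the genes tested equalled or exceeded. MIR200CHG held 1 match, at position -78, and MIR205HG, which was also higher, held none. VIM held none, nor did either start site of CDH2. ZEB1, which fell, has 7 windows: the first held 1 match at position -57, the third held 3 at positions -242, -85 and 34, and the other 5 held none. At least 3 matches, as in the third, were found in 0.633% of the windows of the genes tested. Windows with and without a match were thus found among both the higher and the lower transcripts. A match is a stretch of letters and not a measured binding site. The windows of 3 transcripts that were higher and 3 that were lower, for ZEB1 the third, are shown 5′ to 3′, with matches in capitals, so that those with and without a match can be compared. RAB25 lies at chr1:156060910-156061209 (plus strand), MIR200CHG at chr12:6962995-6963294 (plus strand), MIR205HG at chr1:209428570-209428869 (plus strand), VIM at chr10:17227991-17228290 (plus strand), ZEB1 at chr10:31318966-31319265 (plus strand) and CDH2 at chr18:28177081-28177380 (minus strand).
RAB25: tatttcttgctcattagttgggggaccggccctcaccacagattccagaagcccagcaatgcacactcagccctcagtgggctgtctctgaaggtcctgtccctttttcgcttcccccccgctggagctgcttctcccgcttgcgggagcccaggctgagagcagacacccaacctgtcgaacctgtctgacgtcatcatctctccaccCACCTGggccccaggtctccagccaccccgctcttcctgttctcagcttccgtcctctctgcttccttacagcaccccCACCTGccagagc
MIR200CHG: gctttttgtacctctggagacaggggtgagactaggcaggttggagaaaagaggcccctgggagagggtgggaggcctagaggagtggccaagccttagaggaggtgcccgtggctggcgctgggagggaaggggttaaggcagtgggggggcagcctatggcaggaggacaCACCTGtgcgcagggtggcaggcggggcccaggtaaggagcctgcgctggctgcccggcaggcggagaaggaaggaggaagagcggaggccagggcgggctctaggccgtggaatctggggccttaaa
MIR205HG: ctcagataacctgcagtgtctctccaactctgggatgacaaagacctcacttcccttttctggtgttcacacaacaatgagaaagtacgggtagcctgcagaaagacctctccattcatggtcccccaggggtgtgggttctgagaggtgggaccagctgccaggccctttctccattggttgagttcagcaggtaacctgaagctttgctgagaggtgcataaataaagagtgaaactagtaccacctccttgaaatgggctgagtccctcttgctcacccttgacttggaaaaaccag
VIM: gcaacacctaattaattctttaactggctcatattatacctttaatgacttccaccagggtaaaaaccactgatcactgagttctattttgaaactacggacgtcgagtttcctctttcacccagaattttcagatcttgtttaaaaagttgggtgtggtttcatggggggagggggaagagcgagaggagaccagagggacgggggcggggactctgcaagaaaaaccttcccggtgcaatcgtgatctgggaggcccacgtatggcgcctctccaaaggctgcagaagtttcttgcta
ZEB1: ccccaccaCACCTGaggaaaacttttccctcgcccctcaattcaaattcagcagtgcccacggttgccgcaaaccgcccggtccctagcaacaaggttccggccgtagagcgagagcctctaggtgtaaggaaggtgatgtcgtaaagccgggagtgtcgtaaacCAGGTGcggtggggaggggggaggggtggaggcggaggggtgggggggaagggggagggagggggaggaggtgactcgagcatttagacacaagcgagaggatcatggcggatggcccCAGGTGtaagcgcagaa
CDH2: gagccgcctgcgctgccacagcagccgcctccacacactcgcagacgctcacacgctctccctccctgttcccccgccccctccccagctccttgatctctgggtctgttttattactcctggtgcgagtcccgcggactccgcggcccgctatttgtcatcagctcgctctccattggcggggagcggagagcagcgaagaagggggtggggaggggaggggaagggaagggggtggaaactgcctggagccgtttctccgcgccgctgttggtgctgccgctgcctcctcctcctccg

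The order of the 8 genes by level differed between the lines. In HCC827 it ran from VIM at 398 FPKM through CDH1 at 60.7, EPCAM at 30.1, ZEB1 at 8.27, CDH2 at 7.96 and ESRP1 at 3.27 to GRHL2 at 0.210 and RAB25 at 0.0933. In HCC827_Er it ran from EPCAM at 297 FPKM through CDH1 at 161, ESRP1 at 87.6, VIM at 76.2, GRHL2 at 14.2 and RAB25 at 10.3 to ZEB1 at 1.42 and CDH2 at 0.117. Neighbours in either order did not overlap in their 3 libraries, except GRHL2 and RAB25 in HCC827. CDH1 held the second place in both lines. By size of the difference ESRP1, GRHL2, RAB25 and EPCAM ranked 27th, 64th, 79th and 90th from the top of the genes tested, and CDH1 756th. CDH2, VIM and ZEB1 ranked 91st, 192nd and 307th from the bottom.

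**Figure D4:**
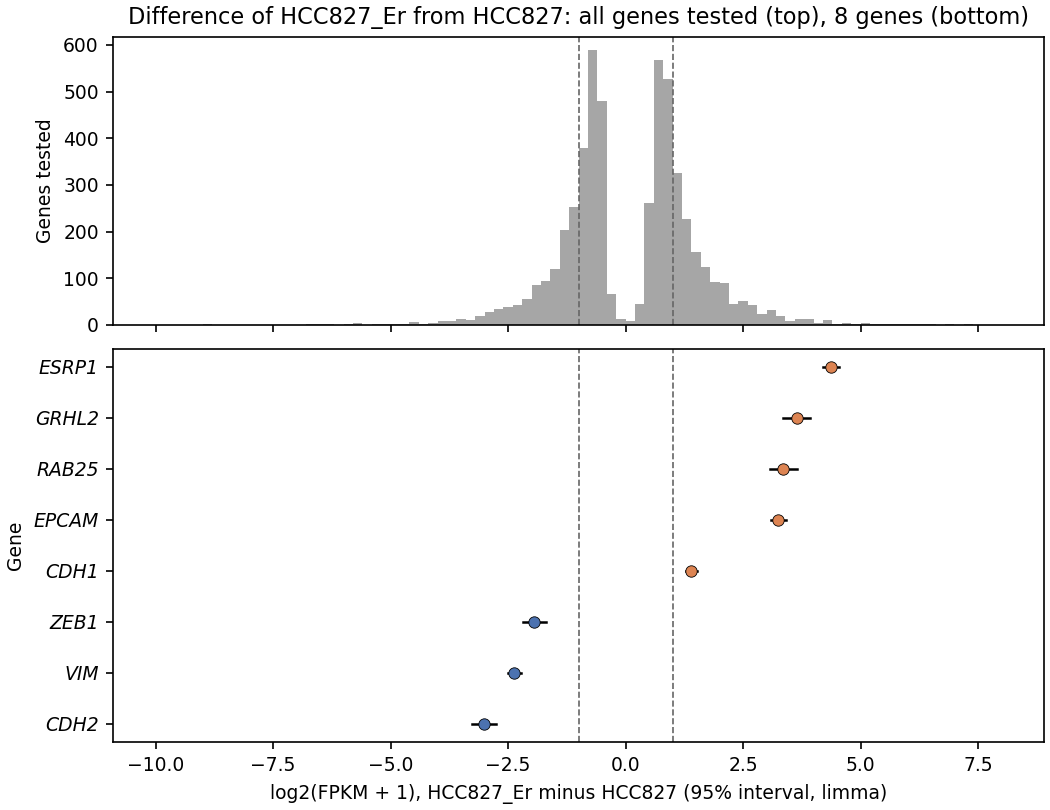
Top, number of genes tested (vertical axis) by their difference of HCC827_Er from HCC827 on the log2(FPKM + 1) scale (horizontal axis); bottom, the same difference for the 8 genes as points with 95% limma intervals, and dashed lines at a 2-fold change. The top shows few genes near 0, and all 8 intervals lie outside the dashed lines, from -3.01 for CDH2 to 4.38 for ESRP1.

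Ratios of 2 genes inside a library were taken because the scaling of the library cancels in a ratio of FPKM. The FPKM of CDH1 divided by that of VIM was 0.145, 0.153 and 0.161 in the HCC827 libraries and 2.03, 2.13 and 2.20 in those of HCC827_Er. Vimentin RNA thus exceeded E-cadherin RNA per length in every parental library, and the reverse held in every resistant one. The FPKM of ESRP1 divided by that of ZEB1 was 0.403, 0.422 and 0.361 in HCC827 and 61.5, 52.9 and 73.0 in HCC827_Er. Here too the ratio lay below 1 in each parental library and far above 1 in each resistant library. As differences of log2(FPKM + 1), CDH1 to VIM moved from -2.69 ± 0.0748 to 1.07 ± 0.0563 and ESRP1 to ZEB1 from -1.12 ± 0.0905 to 5.20 ± 0.159 (SD, n = 3). CDH1 to CDH2 moved from 2.78 ± 0.0117 to 7.19 ± 0.101 (SD, n = 3), so CDH1 already exceeded CDH2 in HCC827, at 7.58 to 7.68 times its FPKM. For each of the 3 ratios, the exact two-sided permutation test of 3 against 3 libraries gave p = 0.1, the smallest it can give. Each pair set a gene higher without overlap against a gene lower without overlap, so this p was fixed in advance and supports nothing. CDH2 had also passed the minimum only through HCC827. The 3 tests share the libraries, and no adjustment could bring them under 0.1. The change of the last ratio, 4.40, was 6.69 with a pseudocount of 0.1 and 2.68 with 5.

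**Figure D5:**
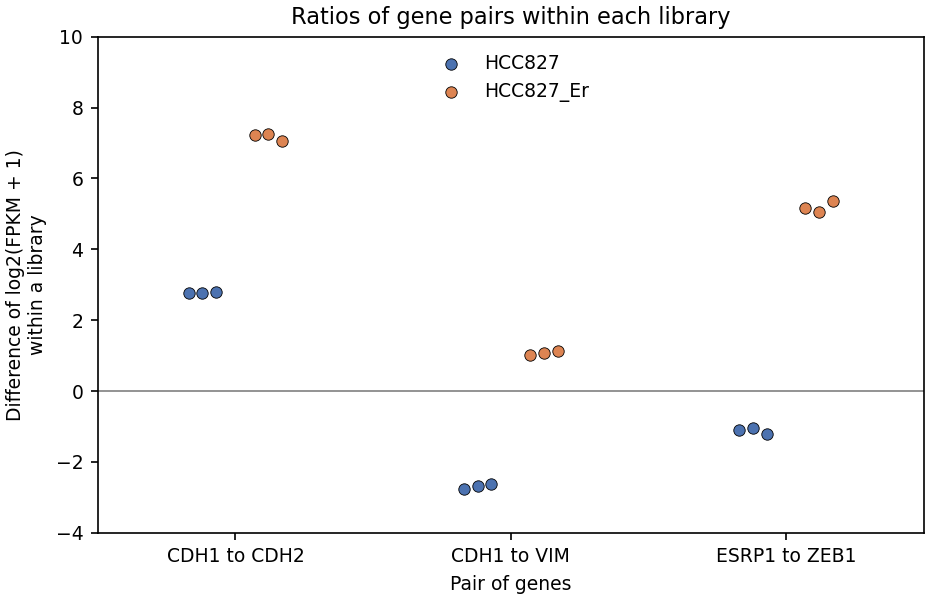
Difference of log2(FPKM + 1) between 2 genes of the same library (vertical axis) for the 3 HCC827 libraries (blue points) and the 3 HCC827_Er libraries (orange points). CDH1 to VIM and ESRP1 to ZEB1 lie below 0 in every HCC827 library and above 0 in every HCC827_Er library, while CDH1 to CDH2 is above 0 in all 6.

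For each gene the 2 nearest genes by level were found, as the Euclidean distance of log2(FPKM + 1) over the 6 libraries. Among the genes near EPCAM was the alveolar protease gene NAPSA, at 28.0 ± 0.711 FPKM in HCC827 and 257 ± 8.23 in HCC827_Er (SD, n = 3; distance 0.467). CDH2 was nearest to UGT1A9, a gene whose exons are shared within its locus, and to CDH6 (distances 0.351 and 0.365). SLFN11 was among the genes near ZEB1 (0.331), and VIM was nearest to MLLT6 and MRPL45 (0.570 and 0.677). GRHL2 was nearest to CADM1 and SLC28A3 (0.265 and 0.328), RAB25 to FBLN2 and ADORA1 (0.425 and 0.457), and CDH1 to TNNT1 and ASS1 (0.207 and 0.271). ESRP1 had no gene as close, with S100P at 0.906 and RAMP1 at 1.04. With 2 lines alone, such likeness describes a pair of levels.

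The TGF-beta pathway is a known inducer of ZEB1. Of 34 names 11 were tested, with 6 called higher and 3 lower (3 and 4 with median-ratio rescaling, 6 and 2 with sum rescaling) and a median of 1.0, beside 24.7% higher, 19.7% lower and a median of 0.43 over all genes tested. Without HCC827 replicate 2, or without HCC827_Er replicate 1, 4 were called higher, as LTBP2 and LTBP3 lost their calls. Its target TGFBI rose from 328.06, 336.78 and 343.28 FPKM to 963.25, 958.14 and 956.46 FPKM. The ligand subunit gene INHBB, which passed the minimum only through HCC827_Er, rose from 0.0400 ± 0.0100 to 4.69 ± 0.592 FPKM and PMEPA1, an inhibitor of the pathway, from 4.59 ± 0.860 to 22.6 ± 2.96 FPKM (SD, n = 3). Among the 3 called lower, SMAD7 fell from 15.7 ± 0.990 to 6.85 ± 1.02 FPKM and BAMBI from 31.6 ± 0.321 to 12.4 ± 0.316 FPKM (SD, n = 3). Both were named after their values were seen. Mesenchymal matrix, filament and surface genes other than VIM and CDH2 were called in both directions: of 39 names 24 were tested, with 9 called higher and 8 lower (9 and 11 with median-ratio rescaling, 9 and 6 with sum rescaling) and a median of -0.64, against the same shares over all genes tested. Of the 9, SPARC, MMP9 and DKK3 passed the minimum only through HCC827_Er. COL4A1 and EMP3 fell with VIM, from 29.3 ± 1.08 to 1.97 ± 0.241 and from 168 ± 6.56 to 15.0 ± 3.79 FPKM (SD, n = 3). The matrix gene SPARC and the ectonucleotidase gene NT5E rose, from 0.250 ± 0.118 to 17.8 ± 2.05 and from 10.9 ± 1.59 to 111 ± 7.41 FPKM (SD, n = 3). FN1, a common marker of the mesenchymal state named after its values were seen, rose from 74.04, 78.55 and 72.32 FPKM to 460.74, 449.01 and 437.45 FPKM.

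Markers of cell types were examined beside the 8 genes. Of 8 markers of lung adenocarcinoma epithelium, 6 were in the table and 5 were called higher, beside 24.7% of all genes tested. The 5 moved in the direction of the epithelial members. Of them SFTPB passed the minimum only through HCC827_Er, and KRT19 and MUC1 are also in the filament and surface lists. NKX2-1, the lineage factor of lung epithelium, rose from 6.52, 6.38 and 4.90 FPKM to 68.13, 68.64 and 60.35 FPKM, and the surfactant gene SFTPB from 0.05, 0.00 and 0.59 FPKM to 34.97, 44.69 and 39.01 FPKM. The alveolar protease NAPSA and the mucin MUC1 rose as well, whereas the keratin KRT8 was lower in HCC827_Er, at 1048.16, 1038.02 and 988.95 FPKM against 1760.48, 1692.51 and 1779.94 FPKM (log2 difference -0.77, not called; -1.11 and called with median-ratio rescaling). The 6 genes summed to between 2150 and 2240 FPKM in HCC827 and between 2550 and 2710 FPKM in HCC827_Er.

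Of 9 fibroblast markers 3 were listed, and they summed to between 2.46 and 3.35 FPKM in HCC827 and between 9.33 and 11.5 FPKM in HCC827_Er. COL1A1 was called higher, while COL3A1 was at 0 in all 3 HCC827_Er libraries. Of 7 endothelial markers 2 were listed, with sums of 8.48 to 9.57 and 6.83 to 7.78 FPKM, and with CDH5 at 0 in HCC827. Of 11 leukocyte markers 5 were listed and 4 were higher in HCC827_Er (CD14, CSF1R, LAPTM5 and CORO1A, each at 0.97 FPKM or less in every HCC827 library and 8.60 or less in every HCC827_Er library). All 4 passed the minimum only through HCC827_Er, so their calls support nothing. Their sums of 172 to 179 and 131 to 144 FPKM were mostly CD68, a lysosomal protein of many cells. The part of such genes in the differences of the 8 was not tested.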

How the data were processed

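Total RNA of 3 HCC827 and 3 HCC827_Er libraries was sequenced after TruSeq RNA preparation, per the labels' protocols. The authors deposited FPKM per gene and library; fastp, HISAT2 and StringTie, and the builds GRCh38.p14 and hg19 without roles, are named per the submitters' processing notes. Versions, annotation, strand setting and how the listed genes were selected were not given in the sources used here. Symbols were matched by identifier for 6636 of 6641 genes. Gene positions, promoters and microRNAs are from RefSeq (GRCh38.p14) and exon overlaps from GENCODE 29, which need not be the authors' annotation.

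Genes at 1 FPKM or more in at least 3 of 6 libraries were tested (5276, with 1365 set aside) on log2(FPKM + 1), which understates changes of low genes, with limma 3.58.1 in R 4.3.3 (trend, cell line as its only term) and Benjamini-Hochberg adjustment over all genes tested. Only the limma fit and its calls were tested on simulated data. Changes were planted there in a small part of the genes, none of low mean level, unlike in the real table. The minimum, rescalings, ratios, lists and promoter counts were not tested in this way. No library was a copy: 2 libraries of a line had at most 317 identical values, and at most 4 at 10 FPKM or more. Members and the 11 lists were chosen with earlier results of these data known. Lists are described by counts and medians, with no set test. Named were the 8 genes, up to 4 called genes per list by size of the difference (up to 2 where none was called), the 2 nearest genes per member, and genes said to be named after their values were seen; 4 genes that this rule or choice names are not reported here. Alternatives were pseudocounts of 0.1 and 5, a minimum of 5 FPKM or none, rescaling (median-ratio, sum, quantile), a robust or trend-free limma fit, a block for replicate number, and leaving out each library.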

Additional observations from a re-analysis of the deposited data

How the results depend on the processing

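All 8 genes kept their direction and their call under each of 16 alternatives. The direction of GRHL2, RAB25 and CDH2 was fixed by the minimum, which each passed only through the line where it is high. CDH1 ranged from 1.06 to 1.64, ESRP1 from 3.48 to 4.70, EPCAM from 2.91 to 3.50 and VIM from -2.71 to -2.02 on the log2 scale. The others ranged from -5.28 to -1.34 (CDH2), from -2.47 to -1.05 (ZEB1), from 1.88 to 5.53 (GRHL2) and from 1.58 to 5.86 (RAB25), with both ends set by the pseudocounts. Median-ratio rescaling shifted HCC827_Er relative to HCC827 by -0.34 in log2 terms and sum rescaling by 0.25. Which scaling is right cannot be told. Of the genes tested 98.3% had a limma adjusted p under 0.05, and how the listed genes were selected is unknown. The counts over all genes, 1304 higher and 1041 lower, became 579 and 506 with a pseudocount of 5, 867 higher with a minimum of 5 FPKM (fewer genes tested) and 1657 lower with median-ratio rescaling. With 1 library left out they ranged from 1298 to 1334 and from 1034 to 1056, and the 3 ratios from 4.37 to 4.46 (CDH1 to CDH2), 3.73 to 3.80 (CDH1 to VIM) and 6.23 to 6.39 (ESRP1 to ZEB1). With the replicate number as a block the counts stayed at 1304 and 1041 and no member changed its call. Same-numbered libraries correlated in their deviations with r of 0.106, -0.0219 and 0.0489, and differently numbered ones with r from -0.0901 to 0.041. These values cannot decide whether same-numbered libraries were handled together. List counts that moved with median-ratio rescaling were, as called lower, 1 of the epithelial regulators, 2 of the RAB11 family, 2 of the mesenchymal splicing regulators, 6 of the genes with ESRP-regulated exons and 2 of the intermediate filaments, and, as called higher, 2 of the cadherins, catenins and nectins and 3 of the TGF-beta pathway. With sum rescaling they were 2 higher and 1 lower of the EMT transcription factors, 1 lower of the epithelial surface genes and 1 lower of the genes with ESRP-regulated exons. Of 1099 values of 69 other named genes under the alternatives, 28 changed the call and none the direction. SMAD7 and BAMBI were not among the 69. The depth is unknown, so no counting error can be given for levels near 0.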

Other observations

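Of the promoter windows of genes called higher in HCC827_Er, 26.5% of 1370 held the E-box CACCTG or CAGGTG. Of those of genes called lower 17.3% of 1093 did, beside 20.8% of the windows available for the genes tested. The shares were 29.3% and 17.6% with median-ratio rescaling and 24.8% and 17.9% with sum rescaling. Windows with at least 2 matches, as in RAB25, made up 6.35% of the first group and 3.02% of the second. Windows of 1 gene can overlap, base composition was not matched, and the difference was not tested. Windows were available for 889 of the 1304 genes called higher, 698 of the 1041 called lower and 3719 of the 5276 tested.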
